A study of Homo sapiens with 22 samples.

Results

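Zinc finger genes of the ZNF series were followed in 22 RNA-Seq libraries of HUDEP-2 cells, an immortalized line of human erythroid progenitors. Of 59087 gene names in both count tables, 553 had a name made of ZNF, a number and at most 1 letter, and 175 of these were selected on a mean level of 10 or more CPM, the count divided by the column total and scaled to 1000000, over the 12 libraries of the BAZ1B experiment. The mean level that chose them is a description and was not tested. ZNF747 lay just inside the threshold at 10.006 CPM, with ZNF619 at 10.1 and ZNF133 at 10.4, while ZNF513 and ZNF182 lay just outside at 9.94 and 9.92 and ZNF75D at 9.90. In the H2A.X experiment 3 subclones lacking H2A.X (H2A.X KO) were set beside 2 WT subclones. In the BAZ1B experiment 3 subclones lacking BAZ1B (BAZ1B KO) were set beside 3 WT subclones. Each subclone was sampled at D0, in expansion medium, and at D6, in differentiation medium. The KO subclones were grown from single cells after CRISPR/Cas9 editing with a pair of guides, so each library stands for 1 clone at 1 day. P-values of the main fit use the spread between subclones within a genotype and day. That fit treats the D0 and D6 libraries of a subclone as independent, which they are not. Cells of all groups had been expanded with doxycycline, stem cell factor, erythropoietin and dexamethasone before the change of medium.

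Most ZNF proteins bind DNA through tandem C2H2 zinc fingers, each a small fold that holds a zinc ion and contacts a few bases. Many of them also carry a KRAB domain, which recruits TRIM28 (KAP1) and, through it, the histone methyltransferase SETDB1, HP1 proteins and the NuRD complex, and this assembly silences transposable elements and imprinted loci. Large clusters of KRAB zinc finger genes that arose by duplication lie on chromosome 19. Other ZNF genes encode cofactors of chromatin complexes, RNA binding proteins and regulators of blood cell development.

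The targeted genes were looked at first. Normalized CPM (scaled by the TMM method) of H2AFX, the older symbol of the H2A.X gene, lay between 89.7 and 136 in the WT libraries and between 17.5 and 59.8 in the H2A.X KO libraries, without overlap. Those of BAZ1B lay between 242 and 264 in WT and between 174 and 222 in BAZ1B KO, also without overlap, and reads from an edited transcript can still be counted on either gene. The word Redo stands in the column names of 5 of the 6 H2A.X KO libraries, all but subclone 3 at D6, and of no WT library, so at D0 it cannot be told apart from the genotype. Total counts ran from 11910141 to 21013004 in the H2A.X experiment and from 33199408 to 41273244 in the BAZ1B experiment. Of 12 erythroid markers at most 1 was at 0 in any library, and their summed CPM at D0 was 25200 and 29910 in WT, with 13430 to 17740 for H2A.X KO. At D6 the WT sums were 35010 and 51280 and the H2A.X KO sums 42550 to 62930, and in the BAZ1B experiment it rose from 6760 to 8473 at D0 to 30780 to 40930 at D6. The summed CPM of 17 markers of other blood cells at D0 was 121.6 and 139.0 for WT, with 297.5 to 465.1 for H2A.X KO. At D6 the WT sums were 122.2 and 228.1 and the KO sums 6.2 to 19.3. In the BAZ1B experiment it was 510.7 to 706.2 at D0 and 12.8 to 46.7 at D6. Between 5 and 13 of these 17 were at 0 in a library, with PF4 and PPBP at 0 in all 22. Few genes carried these sums. In the H2A.X experiment TPSB2 reached 247 CPM, TPSAB1 166, ITGA2B 84.2, CPA3 16.7 and EPX 12.2, and every other marker at most 1.9. In the BAZ1B experiment TPSB2 reached 350, TPSAB1 243, ITGA2B 79.7 and EPX 45.9, and every other marker at most 6.0. The sums moved with genotype and day beside the values below, and the part of these markers in those values was not tested. In bulk RNA, fewer cells of a type and less RNA per cell cannot be told apart.

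All 175 members passed the filter on low counts in both experiments. Together they took 0.407% to 0.554% of the counts in the WT and 0.578% to 0.682% in the H2A.X KO libraries, without overlap. In the BAZ1B experiment their share was 0.676% to 0.709% at D0 and 0.582% to 0.618% at D6, with WT and KO side by side at each day. Per kilobase of transcript, the highest levels in BAZ1B-experiment WT cells at D0 were those of ZNF706 at 72.7 and ZNF146 at 58.1 normalized CPM per kb, followed by ZNF593 at 38.9, ZNF521 at 36.2 and ZNF689 at 34.4. On the GENCODE annotation of hg38, 64 of the 175 lay on chromosome 19. A search of the translated coding sequences found at least 1 C2H2 finger in 172 members, with a median of 9 and at most 36. A KRAB-like pattern was found in 75 members, 43 of them on chromosome 19, and not in 99 others, while ZNF271P is a pseudogene without a coding sequence. The pattern misses some known KRAB genes, such as ZNF445, so its lack is no sign that the domain is missing. It was found in 43.1% of the members with a protein and in 60.5% of the 329 ZNF proteins below the threshold. Exon bases of 94 members overlap another annotated gene, for 70 of them on the other strand, and the counting is not stated to use strand. Paralogs in the chromosome 19 clusters also share sequence, so single values there carry that uncertainty.

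Promoters are shown for 4 members that the results turn on, each as the 250 bases before a RefSeq start on GRCh38.p14, 5′ to 3′ on the strand of the gene. Capitals mark ACTACA or its reverse complement TGTAGT, a short part of a longer motif known for ZNF143 and not that whole motif. ZNF22 (chr10:45000673-45000922, plus strand) varied most between KO subclones. ZNF845 (chr19:53333499-53333748, plus strand) was higher in H2A.X KO at both days. ZNF689 (chr16:30610434-30610683, minus strand, the most upstream of 3 RefSeq starts, which lies 13579 bases inside the GENCODE gene) and ZNF264 (chr19:57191250-57191499, plus strand) moved in opposite directions in BAZ1B KO.
ZNF22: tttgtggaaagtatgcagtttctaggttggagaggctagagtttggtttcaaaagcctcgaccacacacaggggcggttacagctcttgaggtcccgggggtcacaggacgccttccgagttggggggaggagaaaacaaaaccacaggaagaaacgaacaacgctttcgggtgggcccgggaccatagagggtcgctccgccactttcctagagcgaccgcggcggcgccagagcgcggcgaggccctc
ZNF845: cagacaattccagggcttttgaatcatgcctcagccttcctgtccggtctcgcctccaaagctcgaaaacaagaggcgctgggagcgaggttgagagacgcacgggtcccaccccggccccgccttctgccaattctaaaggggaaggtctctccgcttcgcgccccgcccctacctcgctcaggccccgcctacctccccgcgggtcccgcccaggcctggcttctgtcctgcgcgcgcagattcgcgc
ZNF689: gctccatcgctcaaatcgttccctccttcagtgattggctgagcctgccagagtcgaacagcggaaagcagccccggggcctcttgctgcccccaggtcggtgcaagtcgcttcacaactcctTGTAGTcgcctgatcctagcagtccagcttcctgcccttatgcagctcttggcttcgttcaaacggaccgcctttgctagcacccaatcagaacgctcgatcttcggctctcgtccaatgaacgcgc
ZNF264: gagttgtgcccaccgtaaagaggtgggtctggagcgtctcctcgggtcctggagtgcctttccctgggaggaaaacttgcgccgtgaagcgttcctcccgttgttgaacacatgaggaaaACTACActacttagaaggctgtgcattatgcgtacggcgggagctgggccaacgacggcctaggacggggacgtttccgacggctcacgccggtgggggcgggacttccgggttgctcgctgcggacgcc
ZNF689 carried the marked stretch 127 bases before the start and ZNF264 130 bases before it, while neither ZNF22 nor ZNF845 held it. The same window of ZNF875, a member that was lower in BAZ1B KO and is not printed here, did not hold it either. Over both strands, ACTACA was present in 16.2% of 204 start windows of the 151 members found in the table and in 7.28% of all 35116 windows of that length. CCCGCC, the core of a GC box, was present in 58.8% of member windows and 42.5% of all, and CCACACCC, of the kind bound by KLF factors, in 3.43% and 2.97%. AGATAA, which erythroid GATA factors bind, was present in 2.94% of member windows and 9.17% of all. No motif here contains another, and a match is a description of letters and not a bound site.

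The first question was how the ZNF genes stand in cells without H2A.X. At D0, 46 of the 175 members were higher and 13 lower in H2A.X KO than in WT (edgeR quasi-likelihood test, Benjamini-Hochberg adjusted p below 0.05 over 13236 genes). Of all genes tested 18.4% were higher and 16.7% lower. The median log2 fold change was 0.25 over the members and 0.01 over all genes. At D6, 78 members were higher and 23 lower, against 22.2% and 20.9% of all genes, with medians of 0.42 and -0.01. A total of 39 members were higher at both days, 9 were lower at both, 64 passed at neither, and ZNF521 was higher at D0 and lower at D6. Both days share the subclones. The share of all genes called at both days or at neither is not given here, so these counts are a description. At an adjusted p below 0.001 with an absolute log2 fold change above 1.5, ZNF845 passed at D0 and at D6 and no other member did, against 0.166% and 0.151% of all genes. With an unadjusted p below 0.001 and the same fold change, as the methods of the study word their cutoff, 9 members were higher and 0 lower at D0 and 9 higher and 2 lower at D6, against 3.88% and 5.53% of all genes in either direction. Fewer members were called at either day when WT subclone 2 was left out at both days. That leaves 1 WT library at each day. A call of this experiment lost without a WT subclone, here and below, therefore cannot by itself separate dependence on that subclone from lost replication. Leaving out either WT subclone costs the same replication, so the effect sizes can be set side by side. At D0 that of ZNF593 was -1.74 without WT subclone 1 and -0.83 without WT subclone 2. That of ZNF521 was 2.66 and 2.77.

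**Figure D1:**
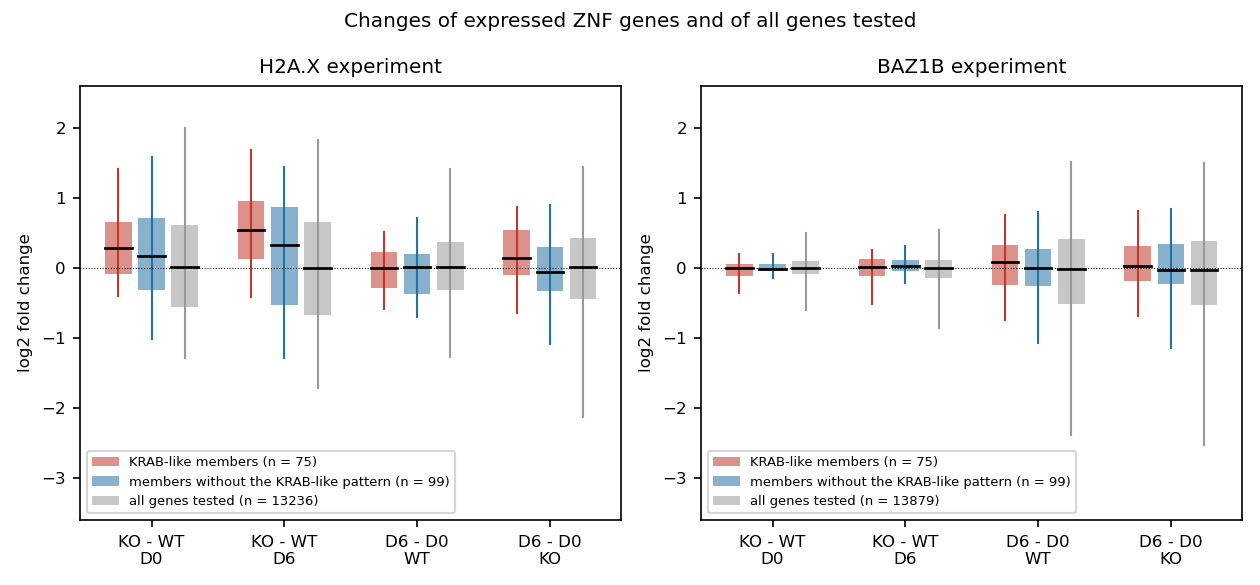
Log2 fold change of members with and without the KRAB-like pattern and of all genes tested, for KO against WT at each day and for D6 against D0 in each genotype. Bars run from the 25th to the 75th percentile, black lines are medians and thin lines run from the 5th to the 95th percentile; in the H2A.X experiment the KRAB-like medians are 0.29 at D0 and 0.54 at D6, and in the BAZ1B experiment both KO medians lie near 0.

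Transcript length and GC content moved with these changes. Over the 175 members, whose median transcript holds 4454 bases at 44.6% GC, the log2 fold change in H2A.X KO went with length, with rank correlations (Spearman's rho) of 0.584 and 0.606 at the respective days. Its rho with GC content was -0.39 and -0.52. These describe genes that share the same libraries. Of the 58 shortest members, 1 was higher and 11 were lower at D0, while of the 59 longest 28 were higher and 1 lower. At D6 the shortest group held 10 higher and 17 lower, the middle group of 58 held 29 and 6, and the longest 39 and 0. In BAZ1B KO rho with length was -0.017 at D0 and 0.016 at D6. A second fit gave each gene an offset by its length and GC content in each library. With it, 25 members were higher and 17 lower at D0, against 11.7% and 8.52% of all genes, and 29 higher and 13 lower at D6, against 11.9% and 9.75%. The medians were then 0.07 over the members and 0.08 over all genes at D0, and 0.11 and 0.07 at D6. Called in the same direction in both fits were 20 higher and 3 lower members at D0 and 27 higher and 8 lower at D6. With the offsets 10 members were higher at both days, namely ZNF687, ZNF76, ZNF292, ZNF510, ZNF37A, ZNF213, ZNF780A, ZNF845, ZNF217 and ZNF41. The share of all genes higher at both days with the offsets is not given here.

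**Figure D2:**
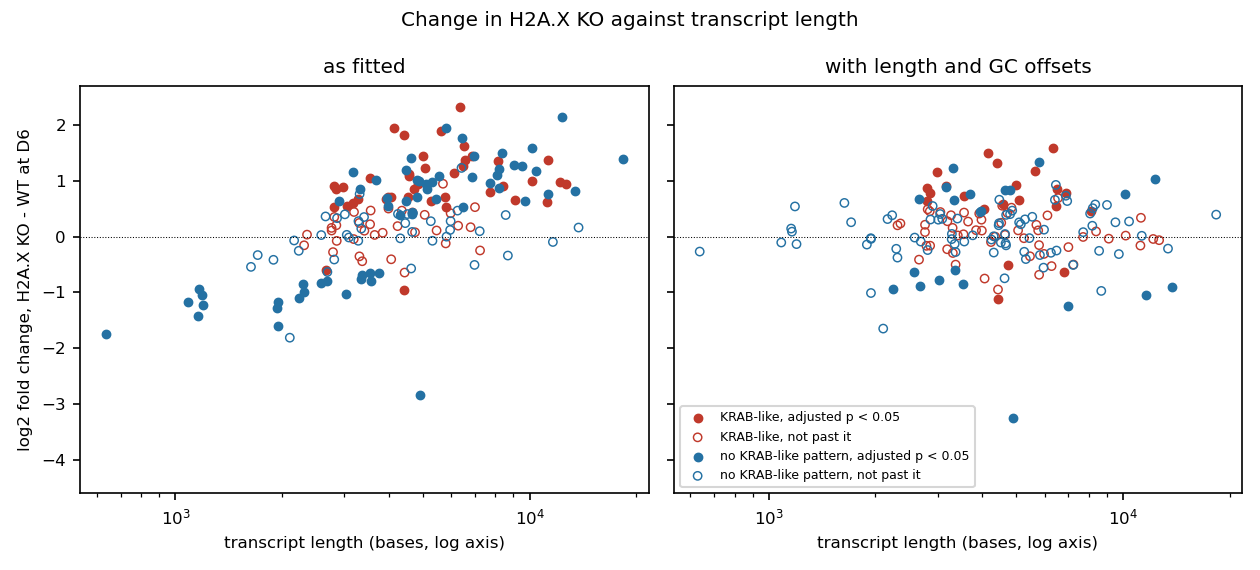
Log2 fold change of each member in H2A.X KO against WT at D6, by transcript length on a log axis, as fitted on the left and with length and GC offsets on the right. Filled points have an adjusted p below 0.05 and colours mark the KRAB-like pattern; on the left the 59 longest members hold 39 higher and 0 lower, on the right 9 higher and 4 lower.

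Among the members that rose, ZNF845 (chr19:53333749-53356906, plus strand), a KRAB-like gene with 26 fingers, had 4.43 and 5.52 normalized CPM in WT and 23.3, 21.5 and 19.8 in H2A.X KO at D0. By D6 the values were 7.15 and 5.91 in WT and 36.8, 33.8 and 27.6 in KO. No KO library overlapped a WT library, and the level was 4.33-fold higher at D0 (2.12 ± 0.21 as log2 fold change ± SE, adjusted p = 0.000886) and 4.99-fold at D6 (2.32 ± 0.21, adjusted p = 0.000574). With length and GC offsets it was higher by 1.52 and 1.58 on the log2 scale and passed at both days. ZNF217 (chr20:53567071-53609907, minus strand), a subunit of the CoREST and CtBP corepressor complexes and an oncogene in solid tumours, had 21.1 and 11.8 in WT and 67.2, 65.9 and 62.5 in KO at D0. Its values at D6 were 14.5 and 10.5 in WT and 52.8, 53.9 and 38.5 in KO, again without overlap, and rose by 1.99 ± 0.27 and 1.94 ± 0.27 on the log2 scale (adjusted p = 0.00317 and 0.00314). The offsets left 1.52 and 1.33, both past the threshold. ZNF292 (chr6:87151803-87265943, plus strand), a large DNA binding protein mutated in leukaemia, had 32.5 and 22.003 in WT and 108, 188 and 67.4 in KO at D6 (2.15 ± 0.40, adjusted p = 0.00452). Its KO libraries differed among themselves more than those of ZNF845 and ZNF217, yet the lowest lay above both WT libraries. ZNF81 (chrX:47836902-48002561, plus strand), a KRAB-like gene, had 3.17 and 2.18 in WT and 15.02, 12.8 and 14.2 in KO at D0, a 5.204-fold difference (2.38 ± 0.33, adjusted p = 0.0037). At D6 the difference was 1.38 (adjusted p = 0.0087), and with the offsets it passed at D0 and not at D6. Without WT subclone 2, ZNF292 at D6 (1.94, adjusted p = 0.0586) and ZNF81 at D0 (2.15, adjusted p = 0.0852) lost their calls, as did ZNF81 at D6 without either WT subclone (adjusted p = 0.052 and 0.068). ZNF845 and ZNF217 passed at both days without any 1 KO subclone.

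The members that fell were mostly short. ZNF593 (chr1:26169908-26170873, plus strand), whose product works in the assembly of the large ribosomal subunit, has a transcript of 638 bases and had 26.5 and 49.4 normalized CPM in WT and 12.3, 16.8 and 15.2 in H2A.X KO at D0. At D6 it had 29.7 and 43.5 in WT and 9.04, 8.66 and 14.9 in KO. All KO libraries lay below all WT libraries and the level fell by 1.36 and 1.75 on the log2 scale (adjusted p = 0.012 and 0.00435), but with length and GC offsets the values were -0.33 and -0.27 and did not pass. ZNF581 (chr19:55635459-55645623, plus strand) had 57.0 and 76.8 in WT and 26.3, 30.2 and 26.6 in KO at D0, and 81.7 and 111 against 41.1, 38.5 and 43.8 at D6. It fell by 1.27 and 1.23 (adjusted p = 0.00377 and 0.00327), and with the offsets the D0 value of -0.45 passed and the D6 value of -0.13 did not. ZNF296 (chr19:45071500-45076478, minus strand) had 19.2 and 22.1 in WT and 7.65, 10.1 and 7.96 in KO at D0 (-1.27 ± 0.27, adjusted p = 0.0092). At D6 it was at -0.54 as fitted and at 0.60 with length and GC offsets, and passed in neither fit. With the offsets its KO effect at D6 minus D0 was 0.99, which did not pass. ZNF692 (chr1:248850006-248859144, minus strand) had 112 and 163 in WT and 23.1, 38.0 and 74.2 in KO at D6 (-1.61 ± 0.39, adjusted p = 0.00972). Its groups did not overlap, but KO subclone 3, the library without the Redo mark, stood nearest to WT. Values with the offsets are not given here for ZNF296 at D0 or for ZNF692. Without WT subclone 2 the D0 calls of ZNF593 (-0.83, adjusted p = 0.183), ZNF581 (-1.03, adjusted p = 0.0558) and ZNF296 (-1.15, adjusted p = 0.126) and the D6 call of ZNF692 (-1.27, adjusted p = 0.136) were lost. Exons of ZNF593 and ZNF581 overlap other annotated genes, as do those of other named members, among them ZNF217, ZNF292, ZNF22, ZNF689 and ZNF768.

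Members with and without the KRAB-like pattern were set side by side. In H2A.X KO, 20 of 75 KRAB-like members were higher and 1 lower at D0, and 40 higher and 2 lower at D6, with medians of 0.29 and 0.54. All genes stood at 18.4% higher and 16.7% lower at D0 and at 22.2% and 20.9% at D6. Of the 99 others 26 were higher and 12 lower at D0, and 38 higher and 21 lower at D6, with medians of 0.17 and 0.33. With length and GC offsets the KRAB-like members counted 10 higher and 8 lower at D0 and 18 higher and 3 lower at D6, and the others 15 and 9, then 11 and 10, where all genes stood at 11.7% and 8.52% at D0 and at 11.9% and 9.75% at D6. The difference between the groups was not tested. On chromosome 19, 14 of 64 members were higher and 8 lower at D0, and 33 higher and 10 lower at D6, where 22.2% and 20.9% of all genes were. With the offsets 3 were higher and 8 lower at D0, and 13 higher and 3 lower at D6. The longest run of members there, from ZNF175 to ZNF331 (51571283 to 53580269), holds 12, and 8 of them were higher and 0 lower at D0 and also at D6. Its median log2 fold change was 0.80 at D0 and 1.10 at D6, and with the offsets 5 were higher and 1 lower at D6. In a run of 5 genes (55476617 to 55645623), ZNF628, ZNF524, ZNF865, ZNF580 and ZNF581, all 5 were lower at D6 with a median of -1.04. With the offsets 0 of these 5 passed and the median was 0.02. Exon bases of ZNF580 and ZNF581 overlap each other. A run of 11 from ZNF264 to ZNF324 (57191500 to 58475436) held 1 higher and 0 lower at D0, 5 higher and 0 lower at D6, and with the offsets 2 higher and 0 lower at D6.

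ZNF521 changed most of all members, and in opposite directions at the 2 days. ZNF521 (chr18:25061924-25352190, minus strand) encodes a protein with 27 fingers that is known from immature haematopoietic cells, where it binds the NuRD complex and opposes EBF1 and GATA1. At D0 it had 10.9 and 11.8 normalized CPM in WT and 104, 52.4 and 66.7 in H2A.X KO, 6.54-fold higher (2.71 ± 0.42, adjusted p = 0.00474). By D6 the values were 4.29 and 2.24 in WT and 0.732, 0.108 and 0.549 in KO, where 66 and 22 reads stood against 14, 2 and 10, and it was 7.11-fold lower (-2.83 ± 0.54, adjusted p = 0.00462). Neither day showed overlap between the groups. From D0 to D6 it fell by 7.30 in KO (adjusted p = 3.37e-05), and by 1.76 in WT, which did not pass (adjusted p = 0.0827). With the subclones sampled at both days paired as a replicate block, the WT value of -1.79 passed (adjusted p = 0.0169). Subtracting the KO effect of D0 from that of D6 gave -5.54 ± 0.68 (adjusted p = 0.00653), and it was the 1 member called in that test, where 0.302% of all genes had a higher and 1.04% a lower KO effect at D6. The difference was -4.89 without WT subclone 1 and -5.92 without WT subclone 2. The call was lost in both fits, each of which holds 1 WT library at each day. The D0 call was lost without WT subclone 2 (adjusted p = 0.0873) and the D6 call without WT subclone 1 (adjusted p = 0.0634). With the subclones paired as a replicate block, 5 members were called, 2 with a higher and 3 with a lower KO effect at D6. In the BAZ1B experiment ZNF521 had 181, 178 and 171 in WT and 182, 234 and 249 in KO at D0, and 2.82, 1.78 and 1.77 against 4.22, 1.17 and 1.62 at D6. There the days lay far apart in both genotypes, while WT and KO overlapped at D6, lay next to each other at D0 and passed at neither. The WT level at D0 was thus 10.9 to 11.8 in 1 experiment and 171 to 181 in the other, and the tables were normalized separately.

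**Figure D3:**
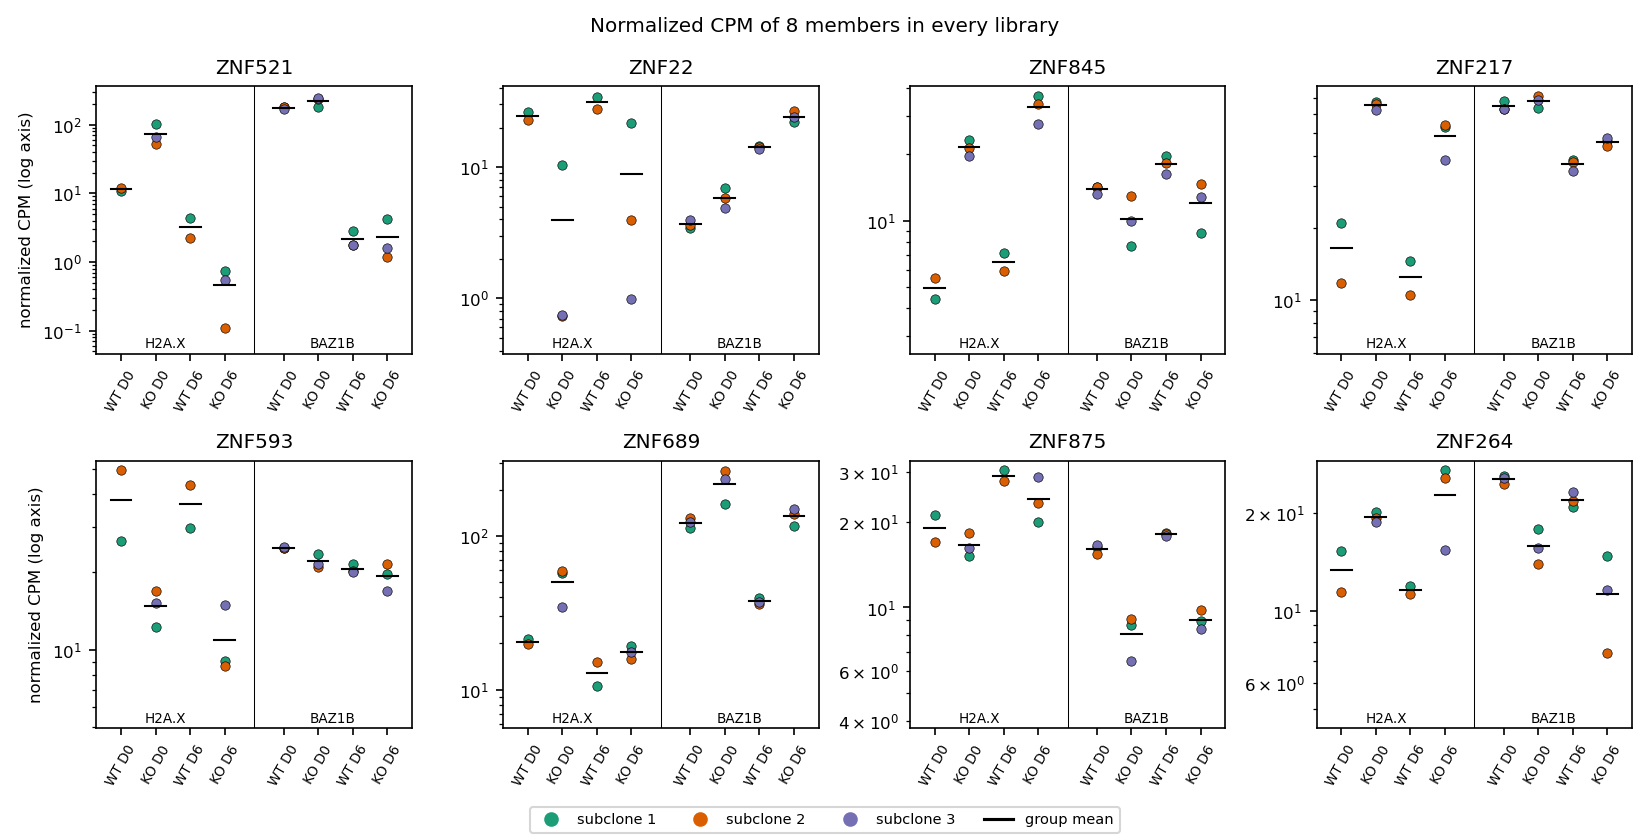
Normalized CPM of 8 members in every library on log axes, with 1 point for each subclone, coloured by its number, and a line for the group mean. ZNF521 is higher in H2A.X KO at D0 and lower at D6, and ZNF22 separates KO subclone 1 from subclones 2 and 3 of the H2A.X experiment at both days.

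The next question was whether a member was switched on or off in 1 subclone alone. A gene was counted when 1 subclone lay at least 4 times above or below every other library of its day and did so at D0 and at D6. By this rule 0 of 175 members were called in either experiment, where 0.0473% of 8451 genes at 10 CPM or more were called in the H2A.X experiment and 0.0592% in the BAZ1B experiment. The rule compares observed ratios and holds no test. At a ratio of 2, chosen after seeing the data, ZNF275 was called alone, where 0.355% of genes met that ratio (0.166% in the BAZ1B experiment). It had 8.00 and 5.72 normalized CPM in WT, 26.0 in H2A.X KO subclone 1 and 9.87 and 9.88 in subclones 2 and 3 at D0. Its values at D6 were 5.59 and 3.67 in WT and 18.97, 7.36 and 6.59 in KO, so KO subclone 1 stood 2.63 and 2.58 times above the next library. Among the 378 ZNF names below the CPM threshold, the ratio of 4 was held at both days by ZNF542P in BAZ1B KO subclone 1. ZNF542P, named here after its values were seen, had 0 reads there at D0 and 4 at D6, against 36 to 97 and 26 to 74 in the other libraries. Its normalized CPM was 1.70 to 2.28 in WT at D0.

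ZNF22 differed between H2A.X KO subclones more than any other member. ZNF22 (chr10:45000923-45005326, plus strand), also known as KROX-26, is a small protein with 5 fingers and no KRAB-like pattern. It had 26.2 and 22.7 normalized CPM in WT at D0, 10.4 in KO subclone 1 and 0.733 and 0.749 in KO subclones 2 and 3. At D6 it had 34.2 and 27.9 in WT, 21.6 in KO subclone 1 and 3.95 and 0.989 in the others. The KO subclones thus spanned 14.2 times at D0 and 21.8 times at D6, subclones 2 and 3 being low at both days and subclone 1 between them and WT. No KO library reached a WT library, but KO against WT did not pass (-2.62 ± 1.17, adjusted p = 0.102 at D0 and -1.81 ± 1.13, adjusted p = 0.215 at D6). It was the only member whose KO subclones lay at least 4 times apart at both days, a rule chosen after seeing the data that 0.248% of 8451 genes met. Over all members the median ratio of the highest to the lowest H2A.X KO subclone was 1.15 at D0 and 1.31 at D6, and that of the WT pair 1.25 and 1.16. Over the 8451 genes these medians were 1.14 and 1.39 in KO and 1.22 and 1.16 in WT. The KO ratio spans 3 subclones and the WT ratio 2. Over the BAZ1B KO subclones the median of the members was 1.12 at each day, against 1.11 and 1.10 over the 8451 genes. There ZNF619 was widest at D0 at 2.49 and ZNF521 at D6 at 3.60. In the BAZ1B experiment ZNF22 moved the other way, with 3.43, 3.65 and 3.92 in WT and 6.92, 5.81 and 4.84 in KO at D0, and 14.5, 14.1 and 13.7 against 22.04, 26.9 and 23.9 at D6. These groups did not overlap, and ZNF22 was higher by 0.68 ± 0.13 and 0.78 ± 0.11 on the log2 scale. In normalized CPM its WT libraries averaged below 10 and its KO libraries above it. The KO libraries, where it was high, thus helped it meet the CPM rule, and its difference between genotypes is given as a description. Its D0 call was lost without WT subclone 1 or WT subclone 2.

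**Figure D4:**
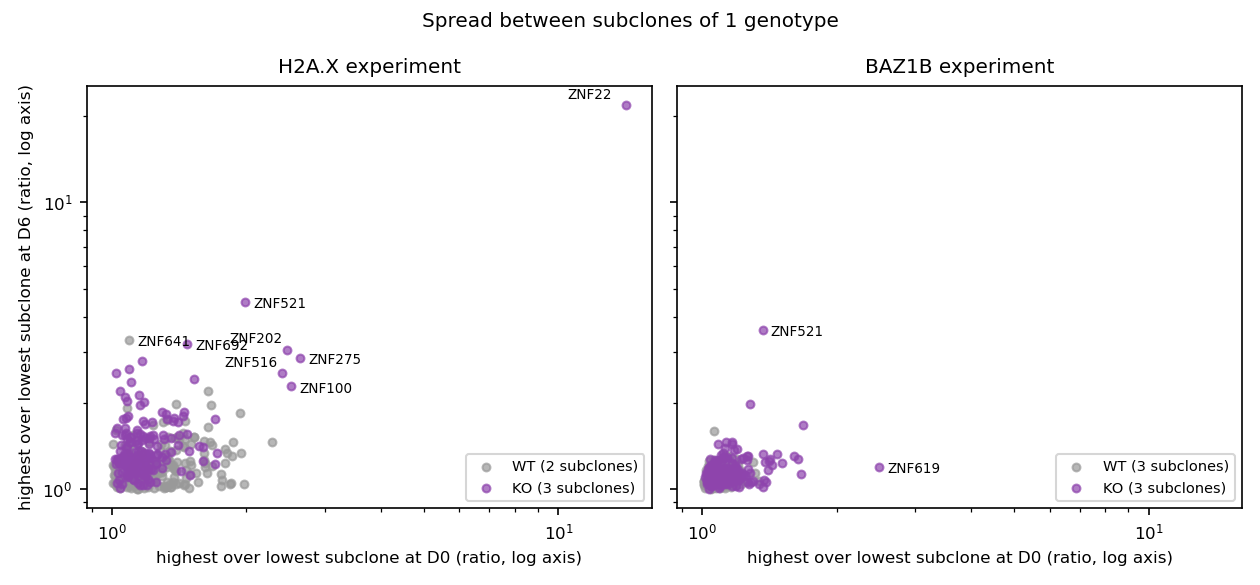
Ratio of the highest to the lowest subclone of a genotype for each member, at D0 on the horizontal and at D6 on the vertical log axis, with WT in grey and KO in purple. In the H2A.X experiment ZNF22 stands alone at 14.2 and 21.8, and in the BAZ1B experiment no KO member is above 2.49 at D0 or 3.60 at D6.

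BAZ1B is a chromatin remodeler subunit with kinase activity, and its loss was the second genotype compared. At D0, 4 members (2.29%) were higher and 6 (3.43%) lower in BAZ1B KO, against 1.25% and 2.64% of all 13879 genes tested, and the medians were -0.00 over the members and 0.00 over all genes. At D6, 15 (8.57%) were higher and 10 (5.71%) lower, against 6.87% and 5.97% of all genes, with medians of 0.02 and -0.00. These shares lay near those of all genes. Higher at both days were 3 members and lower at both 3, while 147 passed at neither, and the matching shares of all genes are not given here. The 3 higher include ZNF22, whose KO libraries helped it meet the CPM rule, and the 3 lower include ZNF875, whose WT libraries did. With an absolute log2 fold change above 1.5, 0 members passed at D0 and ZNF689 alone passed at D6, at an adjusted p below 0.001 (against 0.36% and 0.749% of all genes) and also at an unadjusted p below 0.001 (against 1.09% and 1.27%). The D0 count depended on single subclones, each left out with its libraries of both days. It was 1, 2 and 3 without WT subclones 1, 2 and 3, 23 without KO subclone 1 and 3 without KO subclone 3. At D6 it was 41 without KO subclone 1, 15 without WT subclone 2 and 14 without WT subclone 3. Of the 75 KRAB-like members 3 were higher and 8 lower at D6, the latter being ZNF510, ZNF33A, ZNF562, ZNF875, ZNF175, ZNF264, ZNF805 and ZNF274. Of the 99 others 12 were higher and 2 lower, and the difference between the groups was not tested.

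ZNF689 (chr16:30602558-30624012, minus strand), a KRAB-like gene with 10 fingers, had 113, 130 and 123 normalized CPM in WT and 160, 263 and 235 in BAZ1B KO at D0. By D6 the values were 39.7, 36.4 and 37.0 in WT and 117, 139 and 149 in KO. No libraries of the groups overlapped, and the level was 1.79-fold higher at D0 (0.84 ± 0.14, adjusted p = 0.00445) and 3.58-fold at D6 (1.84 ± 0.15, adjusted p = 1.05e-05). The D0 call was lost without WT subclone 1 (adjusted p = 0.0602). ZNF875 (chr19:37312837-37369365, plus strand), a KRAB-like gene, had 16.3, 15.4 and 16.5 in WT and 8.68, 9.12 and 6.49 in KO at D0. Its values at D6 were 18.3, 18.1 and 17.8 in WT and 8.97, 9.79 and 8.41 in KO, so that every KO library was below every WT library at either day. It fell by 0.99 ± 0.11 and 0.996 ± 0.11 on the log2 scale. In normalized CPM every KO library of ZNF875 lay below 10 and every WT library above it. The WT libraries, where it was high, thus helped it meet the CPM rule. Its difference between genotypes is given as a description. ZNF264 (chr19:57191500-57222846, plus strand), a KRAB-like gene too, had 25.8, 24.6 and 25.5 in WT and 17.8, 13.9 and 15.5 in KO at D0, and 20.9, 21.7 and 23.1 against 14.7, 7.41 and 11.6 at D6. The groups did not overlap, and it fell by 0.68 ± 0.17 (adjusted p = 0.0441) and 0.96 ± 0.18 (adjusted p = 0.0032). The D0 call was lost without any 1 of the WT subclones or KO subclone 3, at adjusted p values of 0.19 to 0.22.

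Smaller changes completed the named members of the BAZ1B experiment. At D0 ZNF768, which binds repeats of the MIR family, had 45.1, 44.6 and 48.5 in WT and 49.4, 82.0 and 71.5 in KO (0.55 ± 0.13, adjusted p = 0.0347). ZNF614 had 16.007, 18.5 and 15.998 against 12.3, 13.3 and 13.2 (-0.38 ± 0.09, adjusted p = 0.0347). Neither gene overlapped between genotypes, although KO subclone 1 of ZNF768 stood close to WT. Both calls were lost without any 1 of the WT subclones or KO subclone 3, and that of ZNF768 without KO subclone 2 too, at adjusted p values of 0.0889 to 0.211 for ZNF768 and 0.11 to 0.265 for ZNF614. At D6 ZNF516, a partner of the CtBP corepressors, had 4.60, 5.06 and 4.24 in WT and 9.23, 6.42 and 8.05 in KO (0.78 ± 0.12, adjusted p = 0.000981). ZNF641 had 6.33, 6.23 and 5.98 against 4.46, 3.46 and 3.45 at D6 (-0.70 ± 0.10, adjusted p = 0.000856). Both were without overlap at D6, and neither passed at D0.

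The KO effect differed between D6 and D0 for 3 members with a higher and 1 with a lower effect at D6, against 1.58% and 0.893% of all genes. ZNF689 had the largest difference, at 0.996 ± 0.21 on the log2 scale (adjusted p = 0.0259). ZNF395, a regulator of hypoxia and interferon responses, had 25.6, 28.9 and 27.3 normalized CPM in WT and 21.5, 22.2 and 19.96 in KO at D0, and 45.1, 39.1 and 40.2 against 44.6, 51.1 and 57.6 at D6. It was lower in KO at D0 and higher at D6, where KO subclone 1 overlapped WT, and the effects differed by 0.66 ± 0.13 (adjusted p = 0.0185). Its calls at the single days each needed WT subclones 2 and 3 and KO subclones 2 and 3, and that at D0 WT subclone 1 as well. ZNF652, a corepressor partner of CBFA2T3, passed at D6 (0.40 ± 0.08, adjusted p = 0.00373) and not at D0, with a difference of 0.49 ± 0.11 (adjusted p = 0.0326). ZNF175, a KRAB-like gene, had a difference of -0.37 ± 0.09 (adjusted p = 0.0446), with 52.7, 56.2 and 59.6 in WT and 46.6, 47.4 and 50.9 in KO at D6. With the subclones paired as a replicate block, 7 members were called, 3 with a higher and 4 with a lower effect at D6. Without any 1 of the WT subclones, or without KO subclone 3, 0 were called, and without KO subclones 1 and 2 the counts were 10 and 7.

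The change over maturation was then followed in the BAZ1B experiment. From D0 to D6, 55 members (31.4%) rose and 59 (33.7%) fell in its WT cells, against 33.5% and 35.4% of all genes, and 64 rose and 47 fell in BAZ1B KO, against 33.2% and 34.5%. The WT shares lay close to those of all genes. The medians were 0.02 and -0.00 over the members and -0.02 in both genotypes over all genes. Both genotypes called 52 members (29.7%) as rising and 44 (25.1%) as falling, and 0 in opposite directions, where 28.6% and 30.4% of all genes were called alike and 0.223% in opposite directions. The rule had used these libraries, though not the contrast of days: 6 members, ZNF521, ZNF516, ZNF341, ZNF641, ZNF589 and ZNF747, reached 10 CPM at D0 alone and 3, ZNF619, ZNF22 and ZNF181, at D6 alone in both genotypes. These 9 entered through the day on which they were high, so their changes between days are given as a description. ZNF521 had the lowest log2 fold change, -6.38 in WT and -6.53 in KO, from 171 to 181 normalized CPM at D0 to 1.77 to 2.82 at D6 in WT. ZNF516 was at -2.29 in WT, from 21.97, 22.95 and 23.2 to 4.60, 5.06 and 4.24. ZNF341, known for driving STAT3 transcription, was at -1.99, from 33.5, 34.2 and 33.8 to 8.58, 8.07 and 8.80. In all 3 the days were far apart in every subclone. ZNF619, a KRAB-like gene, was at 2.43, from 3.65, 3.35 and 3.19 to 18.5, 17.4 and 19.04. ZNF22 was at 1.94. ZNF496, a SCAN domain protein above 10 CPM at both days, rose by 0.98 ± 0.10 (adjusted p = 1.06e-06), from 15.5, 15.6 and 14.5 to 30.7, 29.0 and 30.1. Exons of ZNF619 overlap those of ZNF620. On chromosome 19, 27 of 64 members rose and 14 fell in WT, and elsewhere 28 of 111 rose and 45 fell; this contrast was not tested.

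**Figure D5:**
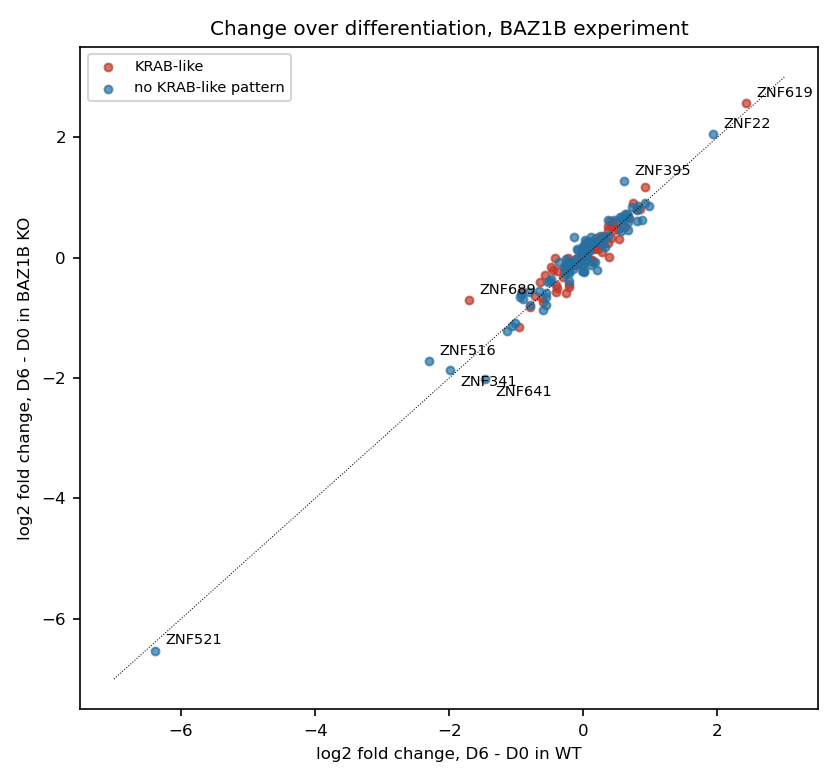
Log2 fold change from D0 to D6 of each member in BAZ1B-experiment WT on the horizontal and in BAZ1B KO on the vertical axis, with a dotted line of equal change. Most members lie along the line, ZNF521 at -6.38 and -6.53 is the lowest, and ZNF689 and ZNF395 lie above the line at differences of 0.996 and 0.66.

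In the H2A.X experiment maturation called fewer members. In its WT cells, edgeR called 0 of 175 members, against 0.839% of all genes higher and 1.16% lower at D6. An unadjusted p below 0.05 was met by 31 members, DESeq2 called 8, and the fit with the 2 subclones paired as a replicate block called 6 higher and 5 lower. In H2A.X KO 33 members rose and 16 fell, against 14.8% and 16.1% of all genes, with medians of 0.09 and 0.02. Without KO subclone 1 the total was 23, and without KO subclone 2 it was 18. Besides ZNF521, ZNF641 fell by 1.99 in KO (adjusted p = 0.00306), ZNF341 by 1.74 (adjusted p = 0.000213) and ZNF689 by 1.52 (adjusted p = 0.000986), and ZNF619 rose by 1.38 (adjusted p = 0.00135). The H2A.X KO and BAZ1B-experiment WT cells, which share no library, both called 31 members (17.7%) as rising and 15 (8.57%) as falling at D6, and 0 in opposite directions, where 14.3% and 15.5% of the 12870 genes tested in both were called alike and 0.124% in opposite directions.

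Members with roles in chromatin complexes formed a list of 12 of 17 named genes. In H2A.X KO, 6 were higher and 0 lower at D0, and 9 higher and 0 lower at D6, with medians of 0.67 and 0.98. Of all genes 18.4% were higher and 16.7% lower at D0, and 22.2% and 20.9% at D6. Beside ZNF217, they held ZNF518A and ZNF518B at 1.504 and 1.44 at D6 and ZNF644, a partner of histone methyltransferases, at 1.08. ZNF445, a KRAB factor of imprinted loci, was at 1.40. ZNF687, a partner of ZMYND8, was at 1.02, ZNF451, a SUMO ligase, at 0.94, and ZNF143, a factor of chromatin loops, at 0.63. With length and GC offsets ZNF217, ZNF687, ZNF644 and ZNF518B were higher at D0 and ZNF217 and ZNF687 at D6. Without WT subclone 2, ZNF217 alone stayed called at D0, and the D6 calls of ZNF592, ZNF518B, ZNF143 and ZNF451 were lost. In BAZ1B KO 0 passed at D0, and at D6 3 were higher, ZNF217, ZNF516 and ZNF518B, and 2 lower. Of all genes 6.87% were higher and 5.97% lower at D6. The lower ones were ZNF451 at -0.23 and ZNF274, which silences ZNF gene clusters, at -0.22. The ZNF274 call was lost without any 1 subclone but KO subclone 1. In BAZ1B-experiment WT cells 2 of the 12 rose and 6 fell over maturation, where 33.5% and 35.4% of all genes did, with ZNF143 at -1.01 and ZNF451 at 0.80.

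Of 8 members of 9 listed with roles in RNA, ribosome or spindle, 2 were higher and 2 lower in H2A.X KO at D0, and 3 higher and 2 lower at D6. Of all genes 18.4% were higher and 16.7% lower at D0, and 22.2% and 20.9% at D6. ZNF106, an RNA binding protein, rose by 1.62 and 1.18 and ZNF638, which binds splicing factors, by 0.71 and 0.52. ZNF326, a regulator of splicing, was at 0.13 at D0 without passing and rose by 0.65 at D6. ZNF622, a factor of ribosome maturation, fell by 0.89 at D0, and ZNF598, the ligase that senses collided ribosomes, fell by 0.69 at D6. Without WT subclone 2 these calls were lost, except that of ZNF593 at D6. With the offsets ZNF326 was lower at D0 (-0.75, adjusted p = 0.0179), and ZNF326 and ZNF638 turned to -0.31 and -0.25 at D6 without passing. In BAZ1B KO 0 of the 8 passed at either day, where 6.87% of all genes were higher and 5.97% lower at D6. Over maturation in WT 1 rose and 5 fell, with the spindle protein ZNF207 at 0.25, where 33.5% and 35.4% of all genes did. Of 5 of 6 haematopoietic members, 3 were higher at D0 and 2 higher and 1 lower at D6 in H2A.X KO, beside the same shares of all genes. ZNF148 was at 0.93 and 1.27 and ZNF281 at 0.89 and 0.99, both GC box binding factors, while ZNF384 and ZNF589 passed at neither day. With length and GC offsets ZNF148 was at 0.077 and 0.26 and ZNF281 at 0.52 and 0.47, and neither passed at either day. The D0 calls of ZNF148 and ZNF281 were lost without WT subclone 2 (adjusted p = 0.126 and 0.115). In BAZ1B KO 0 of the 5 passed, and 4 fell over maturation in WT, again beside the shares of all genes given above.

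The partners that KRAB zinc fingers recruit are not members, and 20 of 22 listed were tested. In H2A.X KO 5 were higher and 3 lower at D0, and 6 higher and 2 lower at D6, with medians of 0.12 and 0.20. Of all genes 18.4% were higher and 16.7% lower at D0, and 22.2% and 20.9% at D6. Values with length and GC offsets are not given for these partners. TRIM28, the corepressor itself, had 766 and 787 normalized CPM in WT and 498, 516 and 518 in KO at D0, and fell by 0.60 at D0 and 0.61 at D6. CBX5, an HP1 protein, rose by 0.86 and 1.24, and SETDB1 rose by 0.75 at D0 and was at 0.46 at D6 without passing. In BAZ1B KO 0 passed at D0 and CHD3 passed at D6 at 0.22, where 6.87% of all genes were higher and 5.97% lower. Over maturation in BAZ1B-experiment WT cells 12 rose and 4 fell, where 33.5% of all genes rose and 35.4% fell. TRIM28 at 0.37 and CBX5 at 0.93 were higher and SETDB1 was at -0.26.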

How the data were processed

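RNA-Seq of HUDEP-2 cells covered 2 WT beside 3 H2A.X KO subclones, and 3 WT beside 3 BAZ1B KO subclones, sampled at D0 and at D6, with groups taken from the sample titles. The authors deposited raw counts of reads per gene name, 1 table per experiment and without normalization; the submitters' processing notes list STAR 2.7.0f, featureCounts of Subread 1.6.4, DESeq2 1.22.1 and hg38. The labels name an unstranded kit and the paper a stranded one with another read length. The analysis used edgeR 4.0.16 (R 4.3.3): filterByExpr (minimum count 10, minimum total 15), TMM factors and a quasi-likelihood fit per experiment with 1 coefficient per genotype and day. Tests are two-sided, and a call needed a Benjamini-Hochberg adjusted p below 0.05 over 13236 (H2A.X) or 13879 (BAZ1B) genes. SE was taken from the F statistic. Normalized CPM are counts scaled to a TMM-adjusted library of 1000000. The biological coefficient of variation was 0.239 and 0.0865, and reads carried no molecular identifiers, so counts need not be independent molecules.

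Named genes were in each comparison, the 3 called members that changed most in either direction, members held apart in 1 subclone at both days, those nearest the CPM threshold and the role lists. The members and lists were chosen with earlier results of these data known. Fingers and a KRAB-like pattern were searched in translated GENCODE coding sequences. Between days the subclone pairs the libraries by its number in the column names, a pairing that the main fit did not use and the replicate block did. Deviations of a subclone from the group means at D0 and D6 correlated by 0.308 to 0.607 in the H2A.X and -0.042 to 0.578 in the BAZ1B experiment. Alternatives were DESeq2 1.42.0, upper-quartile factors, no filter, the compared libraries alone, a replicate block and length and GC offsets. Each subclone was also left out in turn, with its libraries of both days.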

Additional observations from a re-analysis of the deposited data

Results flagged for a closer look

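For 5 members the KO effect at D6 differed from that at D0 in a test of the difference itself (edgeR quasi-likelihood interaction, adjusted p below 0.05 over all genes). ZNF521 differed by -5.54 on the log2 scale in the H2A.X experiment, being higher in KO at D0 and lower at D6. In the BAZ1B experiment ZNF689 differed by 0.996, ZNF395 by 0.66, ZNF652 by 0.49 and ZNF175 by -0.37. The BAZ1B count of such members fell to 0 when a WT subclone was left out. In the H2A.X experiment that leaves 1 WT library at each day, and ZNF521 then differed by -4.89 or -5.92 without being called. Groups of 2 or 3 libraries were too small to look for outlying samples.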

How the results depend on the processing

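Counts of called members within 1.5 times of those above are not listed. In H2A.X KO against WT, leaving out each library in turn gave 2 to 65 members at D0 and 35 to 98 at D6; at D6 length and GC offsets gave 42, and with the replicate block 58. For maturation in H2A.X-experiment WT cells, DESeq2 called 8, no filter 5, the compared libraries alone 2, the replicate block 11, the offsets 4 and both together 9; in H2A.X KO, leaving out libraries gave 18 to 52. For the H2A.X KO effect at D6 minus D0, DESeq2 and no filter called 6 each, the replicate block 5, the offsets 2 and both together 3. In BAZ1B KO against WT the day's libraries alone called 5 at D0, and leaving out 1 subclone gave 1 to 23 at D0 and 14 to 41 at D6. For the BAZ1B difference of effects, DESeq2 called 8, no filter 9, the replicate block 7, the block with offsets 7, and leaving out 1 subclone 0 to 10. A ratio of 2 in place of 4 held 1 member apart in 1 subclone. Upper-quartile factors moved the median of all genes in H2A.X KO at D6 from -0.01 to -0.11. Of 147 values of 44 named genes past the threshold, 146 stayed past it with DESeq2, 143 with the replicate block, 108 with the offsets and 89 without WT replicate 2. Reversed at D6 in H2A.X KO were ZNF326 (-0.31 with offsets, -0.42 with the block too), ZNF638 (-0.25, -0.26) and ZNF264 (-0.041, -0.0029); the cause was not tested. Same-numbered KO and WT subclones share only a number: their deviations correlated by 0.074 to 0.213 in the H2A.X and -0.103 to 0.255 in the BAZ1B experiment. With that block ZNF22 passed in H2A.X KO at D0 (-2.60, adjusted p = 0.0182) and not at D6 (adjusted p = 0.0508).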
